A study of Mus musculus with 18 samples.

Results

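The genes of cholesterol and fatty acid synthesis were followed in mouse bone marrow-derived macrophages (BMMs) of 3 genotypes, with and without lipopolysaccharide (LPS). The list holds 30 genes chosen by function and matched by symbol and identifier, of 38887 genes in the deposited data, and all 30 passed the filter on low counts in each fit. It has 7 genes of the mevalonate arm, 11 of the squalene and sterol arm, 5 regulators and carriers, and 7 of the fatty acid arm. RNA of the BMMs was sequenced after poly(A) selection, in 6 groups of 3 libraries. The libraries of a group are described as separate mice, but the sources used here do not say whether an untreated and an LPS library of the same number came from the same marrow, and p-values measure the spread between libraries of a group.

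The animals were female mice of the C57BL/6J strain, and each genotype is described with Cre recombinase in the Lyz2 locus, which is active in myeloid cells. The animals called WT are described with no other alteration, GILZ KO mice lost a Gilz exon between loxP sites in cells that express Lyz2, and GILZ TG mice had a Gilz cDNA in the ROSA26 locus behind a stop cassette that Cre removes. GILZ, the glucocorticoid-induced leucine zipper, is encoded by Tsc22d3, and mice were adults whose ages were matched within a set of experiments, with no age given for a single group. BMMs were grown from marrow with M-CSF and were left untreated or were given 100 ng/ml LPS, a bacterial cell wall component that activates macrophages, for 4 h. BMMs without LPS are called untreated.

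Tsc22d3 followed the labels, at 16.5 ± 2.08 TPM in untreated WT, 2.34 ± 0.461 in GILZ KO and 156 ± 3.93 in GILZ TG (SD, n = 3; TPM is a transcript count scaled by transcript length and library total). After LPS, it was at 5.15 ± 0.627 TPM in WT and at 2.91 ± 0.392 in GILZ KO, and this difference did not pass the test (edgeR, adjusted p = 0.15). Lyz2, the Cre locus, was at 12840 ± 2276 TPM in untreated WT, 33.6 ± 10.6 in GILZ KO and 33.0 ± 18.3 in GILZ TG (SD, n = 3). The log2 fold change of Lyz2 against untreated WT was -8.63 ± 0.46 (SE) in GILZ KO and -8.61 ± 0.46 in GILZ TG, so Lyz2 RNA was far below its level in WT in both, although Cre is described in the same locus. In each comparison with WT, the altered Gilz and this difference at Lyz2 cannot be told apart. The 8 macrophage markers summed to between 7564 and 8888 TPM in all libraries. GILZ TG replicates 1 and 2 stood apart, with 105 and 119 TPM of stromal markers without treatment against 10.5 in replicate 3 and at most 22.4 in WT and GILZ KO. Their neutrophil markers summed to 112 and 285 TPM, against 40.6 in replicate 3 and at most 40.6 in the other genotypes. After LPS the stromal sums were 83.0, 114 and 10.6 TPM in GILZ TG replicates 1, 2 and 3, and the neutrophil sums 126, 303 and 47.7 TPM, with 6 of 8 markers of each list above 1 TPM. B cell markers, of which 2 of 5 were above 1 TPM, summed to 49.2 and 55.4 TPM in untreated GILZ TG replicates 1 and 2, against 24.5 in replicate 3 and at most 35.4 in the other genotypes. After LPS they summed to 36.3 and 51.3 TPM, against 18.3 in replicate 3 and at most 21.5 elsewhere. In RNA from whole cultures, fewer cells of a type and less RNA per cell cannot be told apart.

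Cholesterol is built from acetyl-CoA through mevalonate, isoprenoids, squalene and lanosterol, and fatty acids from the same precursor through malonyl-CoA. Transcription of both arms is driven by sterol regulatory element-binding proteins, which the escort Scap carries from the endoplasmic reticulum to the Golgi for cleavage, and which Insig proteins hold back when sterols are plentiful. Macrophages use these lipids for membranes and as precursors of oxysterols and of the lipids of inflammation.

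The stretches before the start site are shown for 4 members, each of which carries the letters CCAAT on 1 strand or the other. Hmgcs1 and Sc5d had higher counts after LPS, Fasn had lower counts in all genotypes, and Mvd had lower counts in WT and GILZ TG. The sequences are from RefSeq on GRCm38.p6 and cover 250 bases upstream of the start site, 5′ to 3′ on the strand of the gene. They are chr13:119690101-119690350 on the plus strand for Hmgcs1, and chr9:42264301-42264550, chr11:120824548-120824797 and chr8:122443423-122443672 on the minus strand for Sc5d, Fasn and Mvd, and none overlaps an exon of the GENCODE annotation. Capitals mark CCAAT (the CCAAT box), GGGCGG (the GC box) and CACNCCAC (a core of the sterol regulatory element), searched on both strands.
Hmgcs1: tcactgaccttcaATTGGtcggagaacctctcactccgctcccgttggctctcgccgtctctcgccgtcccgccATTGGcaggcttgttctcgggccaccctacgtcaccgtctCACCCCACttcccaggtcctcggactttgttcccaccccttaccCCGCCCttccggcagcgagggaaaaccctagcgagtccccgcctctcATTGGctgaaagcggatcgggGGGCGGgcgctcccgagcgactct
Sc5d: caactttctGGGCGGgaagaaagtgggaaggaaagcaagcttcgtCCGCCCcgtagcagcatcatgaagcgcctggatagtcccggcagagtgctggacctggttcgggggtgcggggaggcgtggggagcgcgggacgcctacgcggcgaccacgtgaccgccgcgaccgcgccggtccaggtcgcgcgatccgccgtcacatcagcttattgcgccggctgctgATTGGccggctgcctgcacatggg
Fasn: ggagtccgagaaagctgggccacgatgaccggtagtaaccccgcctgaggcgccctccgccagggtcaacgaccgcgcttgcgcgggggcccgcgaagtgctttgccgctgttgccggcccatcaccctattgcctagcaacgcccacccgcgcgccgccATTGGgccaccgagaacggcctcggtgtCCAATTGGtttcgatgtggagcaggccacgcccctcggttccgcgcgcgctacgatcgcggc
Mvd: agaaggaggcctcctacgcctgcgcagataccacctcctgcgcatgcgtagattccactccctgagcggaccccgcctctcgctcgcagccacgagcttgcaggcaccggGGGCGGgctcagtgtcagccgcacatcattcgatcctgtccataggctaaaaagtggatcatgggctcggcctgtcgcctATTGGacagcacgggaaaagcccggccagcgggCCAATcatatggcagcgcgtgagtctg
Hmgcs1 is the member among these 4 with a CACNCCAC match, at 136 bases before the start. Hmgcs1 has 3 CCAAT boxes and 2 GC boxes, Sc5d has 1 and 2, and Mvd has 2 and 1. Fasn has 3 CCAAT boxes, of which a pair shares letters on opposite strands, and 0 GC boxes.

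Of the 30 members, 24 were in the RefSeq table, and Fdps, Fdft1, Sqle, Stard4, Fads1 and Scd2 were not. A CCAAT box was found in 18 of the 24 members, against 37.5% of 27025 genes with a promoter of the same length. A GC box was found in 20 of the 24, against 35.4% of the genes. CACNCCAC was found in 3 of the 24, Acat2, Hmgcs1 and Insig1, against 6.05% of the genes. These matches describe the sequence and are not tested sites. The 27025 genes are those of the whole RefSeq table, expressed in BMMs or not, and the members were not compared with expressed genes alone.

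In untreated WT BMMs, the members ranged from 4.28 ± 0.293 TPM for Elovl6, the elongase that makes stearate from palmitate, to 110 ± 6.64 TPM for Msmo1, which removes methyl groups from sterols. Fdps, the farnesyl diphosphate synthase, was at 110 ± 28.9 TPM, Ebp, a sterol isomerase, at 97.2 ± 4.86, and Acly, which supplies cytosolic acetyl-CoA, at 92.3 ± 8.01. Msmo1, Fdps, Ebp and Acly differed by less than the spread of Fdps. At the low end, Dhcr7, the last reductase of cholesterol synthesis, was at 14.0 ± 1.18 TPM, Mvd at 13.0 ± 1.27, Tm7sf2 at 12.1 ± 1.32 and Acaca at 10.9 ± 2.82, and these neighbours also overlapped within their spread. The 30 members summed to between 1035 and 1321 TPM in the 9 untreated libraries and between 643 and 835 TPM in the 9 LPS libraries, and the ranges did not overlap. In WT, the LPS libraries lay below all untreated ones in TPM for 24 of 30 members and 8539 of 13169 genes tested. The numbers were 25 and 8867 in GILZ KO, and 21 and 8586 in GILZ TG.

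**Figure D1:**
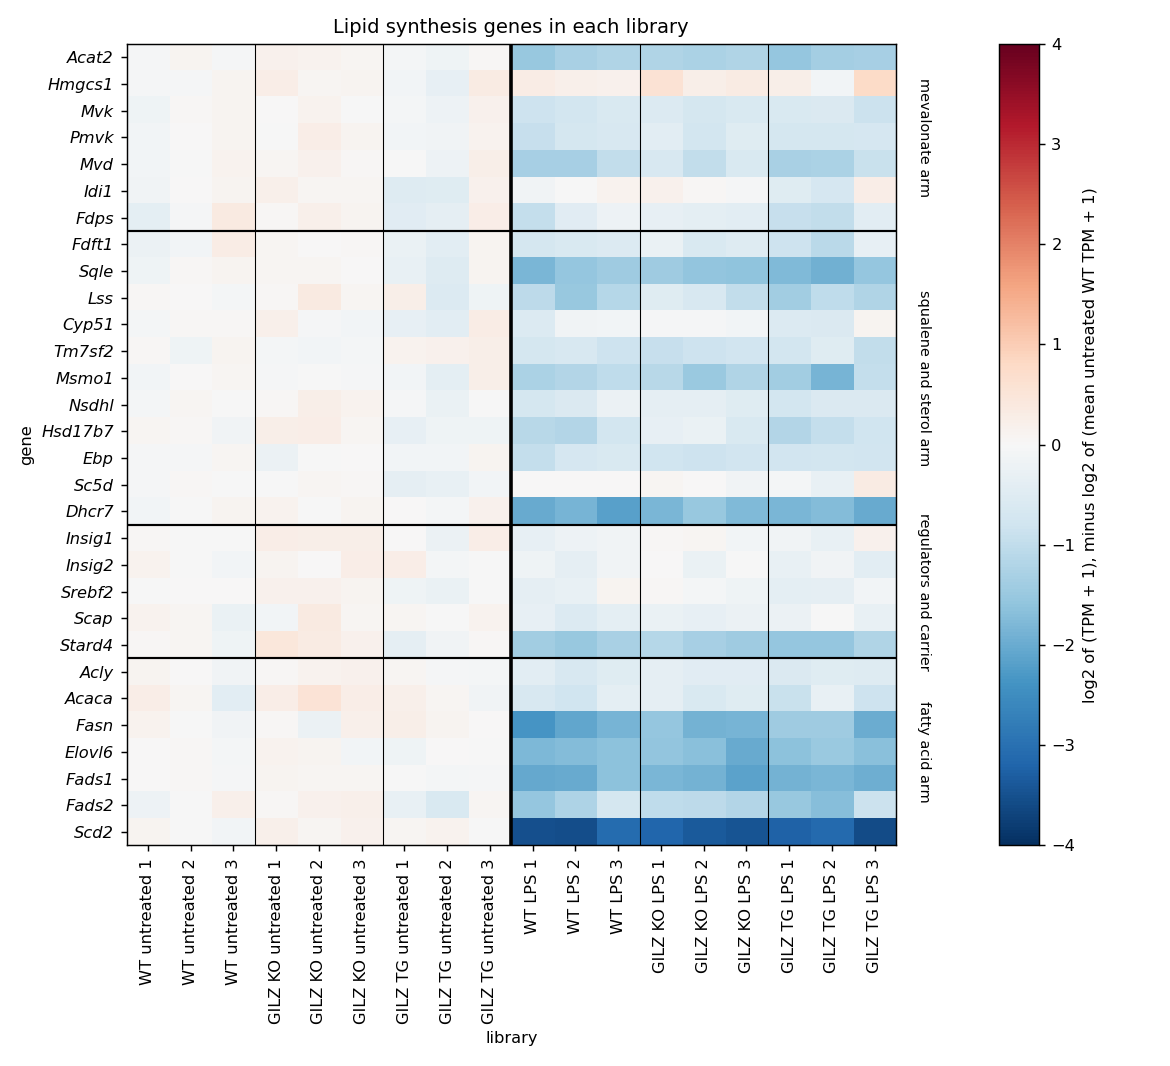
Level of each of the 30 genes (vertical axis, by arm) in each of the 18 libraries (horizontal axis), as log2(TPM + 1) minus log2 of the mean untreated WT TPM + 1, red for higher and blue for lower. Scd2 is the darkest blue in all 9 LPS libraries, Hmgcs1 is red in 8 of them, and untreated GILZ TG replicate 3 is redder than untreated replicates 1 and 2 in the mevalonate arm.

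The first question was how the pathway responded to LPS in each genotype. The fatty acid arm fell furthest, led by the desaturase Scd2, the elongase Elovl6, the synthase Fasn and the desaturase Fads1. The early mevalonate enzyme Hmgcs1 and the late sterol enzyme Sc5d were called higher by counts normalized by TMM. On log2(TPM + 1), 0 of 30 members were called higher in any genotype. In WT, 6 members were higher and 11 lower after LPS among counts normalized by TMM (edgeR, adjusted p under 0.05), against 33.5% of all genes tested that were called higher and 35.1% called lower. In GILZ KO, 8 members were higher and 12 lower, against 33.2% and 35.4% of all genes. In GILZ TG, 8 were higher and 12 lower, against 33.6% and 35.1%. In each genotype the share of members called lower was close to that of all genes, and the share called higher was below it.

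The median log2 fold change of the 30 members was -0.16 in WT, -0.07 in GILZ KO and -0.10 in GILZ TG, beside -0.02 for all genes in each genotype. Hmgcs1, Idi1, Sc5d, Insig1, Insig2 and Srebf2 were higher in all 3 genotypes by this measure, but all of these except Hmgcs1 and, in WT and GILZ TG, Sc5d had differences below 0 on the TPM scale. Acat2, Sqle, Lss, Msmo1, Dhcr7, Stard4, Fasn, Elovl6, Fads1 and Scd2 were lower in all 3 genotypes, on the TPM scale as well. There were 7 members called in no genotype, Mvk, Pmvk, Fdps, Fdft1, Nsdhl, Hsd17b7 and Ebp.

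The scale decided the direction of the weaker responses. On log2(TPM + 1), the median of all genes tested was shifted by -0.51 after LPS in WT, by -0.52 in GILZ KO and by -0.51 in GILZ TG. On that scale, 0 members were higher and 23 lower in each genotype (limma, adjusted p under 0.05). Among all genes, 16.1% were called higher and 65% lower in WT, 15.3% and 66.1% in GILZ KO, and 15.6% and 65.2% in GILZ TG. Calls higher made up 48.9% of all calls in WT by TMM and 19.8% on the TPM scale. The member medians on log2(TPM + 1) were -0.74, -0.70 and -0.71 in WT, GILZ KO and GILZ TG, which is below the median of all genes in each. With each library centred on its median, a variant chosen after seeing the data, 5 members were higher and 14 lower in WT, 4 and 10 in GILZ KO, and 5 and 13 in GILZ TG. Of all 13169 genes, 4323 were called higher and 4447 lower in WT, 4415 and 4499 in GILZ KO, and 4329 and 4385 in GILZ TG. The 20 most abundant genes held 14.7% to 16.5% of TPM in untreated libraries and 16.2% to 17.9% after LPS, and their part in the shift was not tested.

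**Figure D2:**
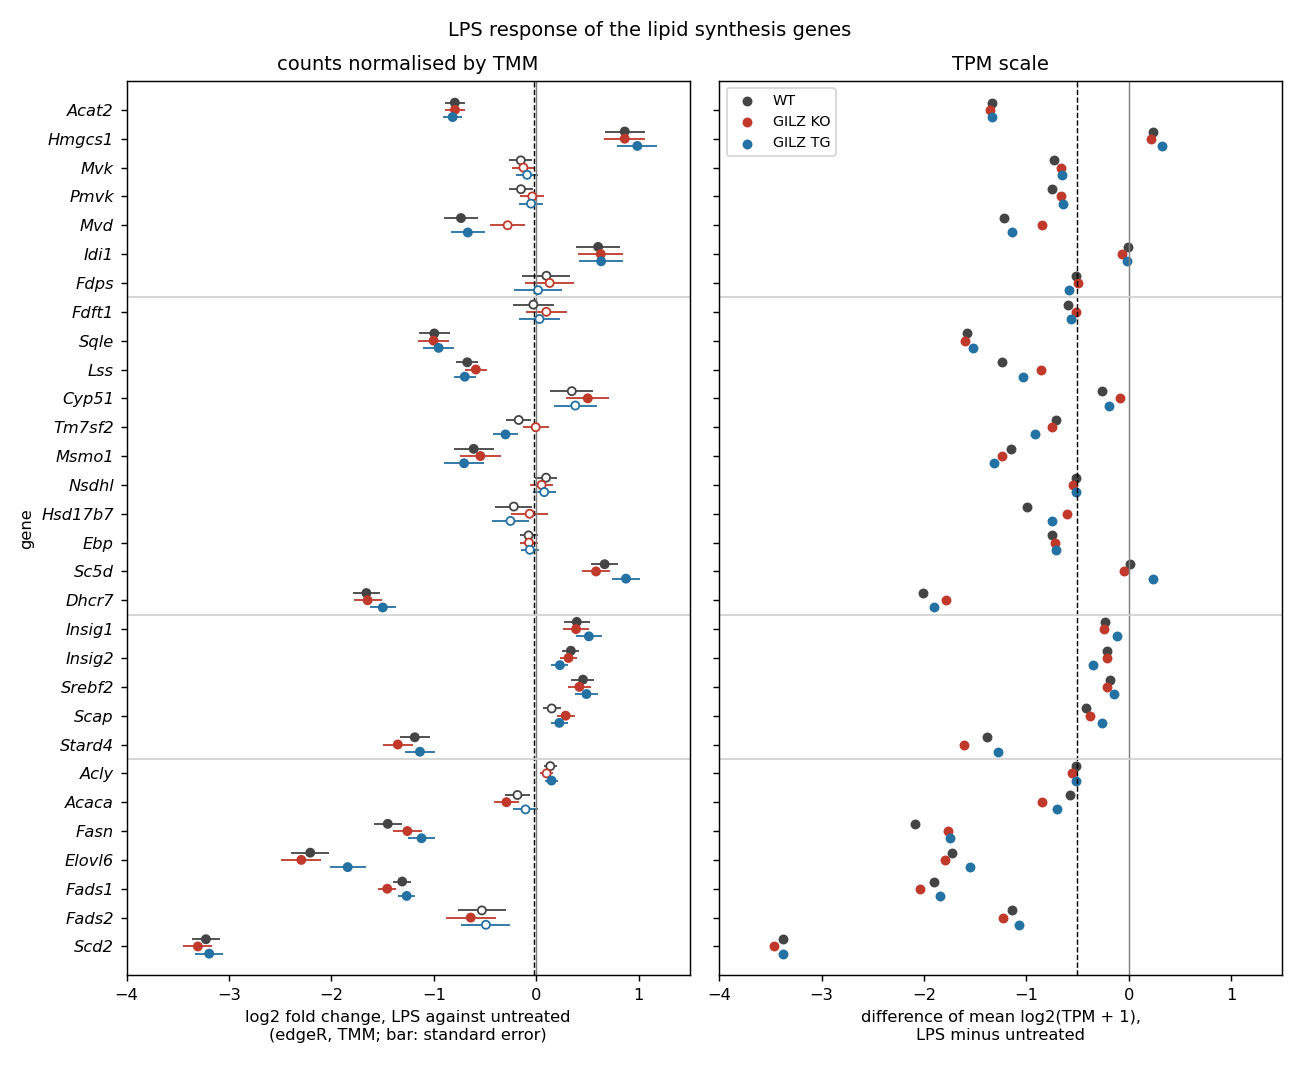
LPS response of each gene in WT, GILZ KO and GILZ TG, on the left as the log2 fold change of counts normalized by TMM with its standard error (filled, adjusted p under 0.05; open, not), on the right as the difference of log2(TPM + 1), where calls are not marked. The dashed line is the median of all genes in WT, -0.02 on the left and -0.51 on the right; Scd2 is lowest on both sides and Hmgcs1 lies above 0 on both.

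Over the fatty acid arm, the median response on the log2 scale was -1.31 in WT, -1.26 in the GILZ KO and -1.12 in the GILZ TG libraries. In WT, 4 of its 7 members fell and 0 rose, and in GILZ KO 6 fell. In GILZ TG 4 fell. Acly was called higher in GILZ TG at a log2 fold change of 0.15 ± 0.06 (SE), which is -0.51 on log2(TPM + 1). Of all genes, 35.1% were called lower in WT, 35.4% in GILZ KO and 35.1% in GILZ TG, and 33.6% higher in GILZ TG. All 9 LPS libraries had a lower summed TPM of this arm than any untreated library, at 109 to 134 TPM against 276 to 325.

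Scd2, which puts a double bond into stearate and palmitate, lies on chromosome 19, 44293674 to 44306864 in GRCm38. Its levels without treatment were 34.0, 31.3 and 29.3 TPM in WT, 36.5, 33.1 and 35.4 TPM in GILZ KO, and 33.5, 34.8 and 31.2 TPM in GILZ TG. After LPS they were 1.87, 1.78 and 2.86 TPM in WT, 2.61, 2.17 and 2.0 TPM in GILZ KO, and 2.43, 2.77 and 1.73 TPM in GILZ TG. The groups were far apart in each genotype, with at most 2.86 TPM in any LPS library and at least 29.3 TPM in any untreated one. The log2 fold change was -3.23 ± 0.14 (SE) in WT, -3.30 ± 0.14 in GILZ KO and -3.19 ± 0.13 in GILZ TG, with edgeR's adjusted p of 1.02e-12, 1.31e-12 and 8.7e-13. By normalized counts this is 9.35-fold lower in WT, 9.88-fold lower in GILZ KO and 9.15-fold lower in GILZ TG. On the TPM scale, where the median of all genes also fell, the fall was larger. The mean after LPS was 6.88% of the untreated mean in WT, 6.46% in GILZ KO and 6.96% in GILZ TG.

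Elovl6 lies on chromosome 3, 129532355 to 129638495. Its levels without treatment were 4.38, 4.51 and 3.95 TPM in WT, 4.84, 4.64 and 3.91 TPM in GILZ KO, and 3.71, 4.31 and 4.27 TPM in GILZ TG. After LPS they were 0.51, 0.60 and 0.68 TPM in WT, 0.75, 0.67 and 0.31 TPM in GILZ KO, and 0.69, 0.87 and 0.64 TPM in GILZ TG. The groups did not overlap in any genotype, although the LPS values rest on few reads, with as few as 16 in a library. The log2 fold change was -2.21 ± 0.18 in WT, -2.29 ± 0.19 in GILZ KO and -1.84 ± 0.18 in GILZ TG, 4.62-fold, 4.90-fold and 3.58-fold lower (edgeR, adjusted p = 1.01e-08, 1.31e-08 and 6.37e-08). In TPM, the mean after LPS was 13.9%, 12.9% and 17.9% of the untreated mean in the same order.

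Fasn, the synthase that makes palmitate, fell by 1.45 ± 0.14 on the log2 scale in WT, by 1.26 ± 0.14 in GILZ KO and by 1.12 ± 0.14 in GILZ TG. On the TPM scale, where the median of all genes also fell, its mean after LPS was 21.6% of the untreated mean in WT, 27.5% in GILZ KO and 28.5% in GILZ TG. Fads1, a desaturase of polyunsaturated fatty acids, fell by 1.31 ± 0.09 in WT, 1.45 ± 0.09 in GILZ KO and 1.26 ± 0.09 in GILZ TG. Fads2, the other desaturase of that route, passed the test in GILZ KO at -0.64 ± 0.24 (edgeR, adjusted p = 0.0279). In WT it was at -0.53 ± 0.24 (adjusted p = 0.0567) and in GILZ TG at -0.49 ± 0.24 (adjusted p = 0.0801). Acaca, which makes malonyl-CoA, passed in GILZ KO at -0.29 ± 0.12 (adjusted p = 0.041), and had -0.18 ± 0.12 in WT and -0.10 ± 0.12 in GILZ TG. Fads2 was no longer called in GILZ KO without untreated replicate 2 or 3 or any LPS replicate of that genotype (adjusted p up to 0.0751), nor Acaca without untreated replicate 1 or 3 or LPS replicate 2 or 3 (up to 0.149). The call of Acly in GILZ TG was lost without any of 13 single libraries of the 3 genotypes, with the highest adjusted p, 0.23, without GILZ TG untreated replicate 3.

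**Figure D3:**
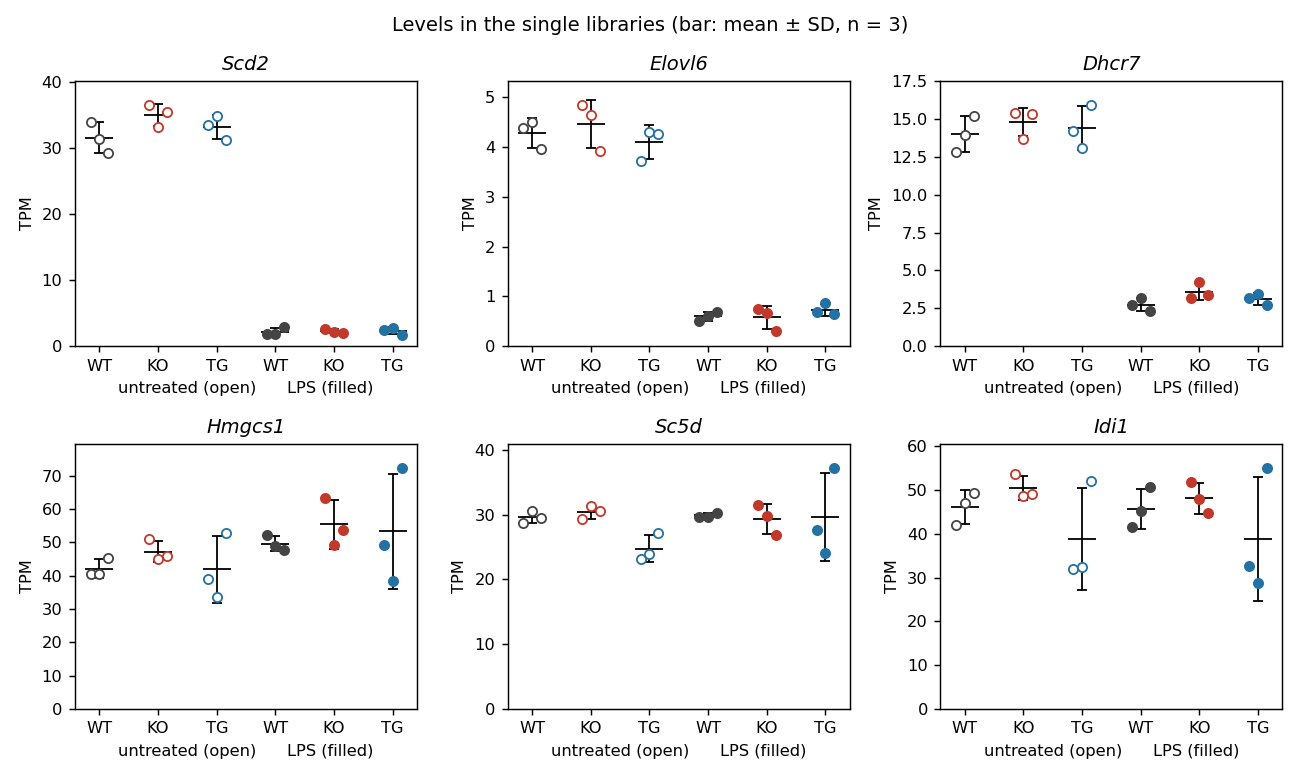
TPM (vertical axis, from 0) of the 3 genes with the largest fall and the 3 with the largest rise by normalized counts in WT, in each library of the 6 groups, with the mean and SD (n = 3). Scd2, Elovl6 and Dhcr7 do not overlap between untreated and LPS libraries, while Idi1 and Sc5d overlap and GILZ TG replicate 3 is the highest of its group for Hmgcs1, Sc5d and Idi1.

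In the mevalonate arm, 2 of 7 members were higher and 2 lower after LPS in WT, with a median log2 fold change of -0.15. Of all genes, 33.5% were called higher and 35.1% lower in WT. Hmgcs1, which condenses acetyl-CoA and acetoacetyl-CoA to HMG-CoA, lies on chromosome 13, 119690379 to 119708260. Its levels without treatment were 40.6, 40.5 and 45.3 TPM in WT, 50.9, 44.9 and 46.0 TPM in GILZ KO, and 39.0, 33.7 and 52.9 TPM in GILZ TG. After LPS they were 52.2, 48.9 and 47.7 TPM in WT, 63.3, 49.2 and 53.6 TPM in GILZ KO, and 49.2, 38.5 and 72.4 TPM in GILZ TG. The groups were apart in WT, while in GILZ KO the lowest LPS library lay under the highest untreated one, and GILZ TG overlapped widely. By counts it was higher by 0.87 ± 0.20 on the log2 scale in WT, 0.86 ± 0.20 in GILZ KO and 0.99 ± 0.20 in GILZ TG (edgeR, adjusted p = 0.000841, 0.000902 and 0.00026), and on log2(TPM + 1) by 0.23, 0.22 and 0.32, with no call.

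Idi1, the isomerase that interconverts the building blocks of isoprenoids, lies on chromosome 13, 8885501 to 8892451. Its levels without treatment were 41.9, 47.1 and 49.3 TPM in WT, 53.6, 48.7 and 49.1 TPM in GILZ KO, and 31.9, 32.4 and 52.2 TPM in GILZ TG. After LPS they were 41.5, 45.2 and 50.6 TPM in WT, 51.8, 48.0 and 44.7 TPM in GILZ KO, and 32.7, 28.8 and 55.1 TPM in GILZ TG. Untreated and LPS libraries overlapped in each genotype, and in GILZ TG replicate 3 was well above the other two in both conditions. The count-based log2 fold change was 0.61 ± 0.22 in WT, 0.63 ± 0.22 in GILZ KO and 0.63 ± 0.22 in GILZ TG (edgeR, adjusted p = 0.02, 0.0169 and 0.0162), against -0.01, -0.07 and -0.02 on log2(TPM + 1). The call by counts was lost in WT without untreated replicate 1 or 2 or LPS replicate 3 (edgeR, adjusted p up to 0.0937), in GILZ KO without untreated replicate 2 or 3 (up to 0.0638), and in GILZ TG without untreated replicate 1 or 2 or LPS replicate 3 (up to 0.173).

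Acat2, the thiolase at the start of the arm, fell by 0.79 ± 0.10 in WT, 0.79 ± 0.10 in GILZ KO and 0.82 ± 0.10 in GILZ TG. Mvd, the decarboxylase that yields isopentenyl diphosphate, fell by 0.73 ± 0.17 in WT and by 0.67 ± 0.17 in GILZ TG. In GILZ KO it was at -0.28 ± 0.17 (edgeR, adjusted p = 0.157). The kinases Mvk and Pmvk had log2 fold changes between -0.15 and -0.04, and Fdps between 0.02 and 0.13, with no call in any genotype.

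Of the 11 members of the squalene and sterol arm, 1 was higher and 4 lower in WT. In GILZ KO 2 and 4 were, and in GILZ TG 1 and 5. Of all genes, 33.5% were called higher and 35.1% lower in WT. The shares were 33.2% and 35.4% in GILZ KO, and 33.6% and 35.1% in GILZ TG. Dhcr7 fell furthest and lies on chromosome 7, 143823145 to 143848410. Its levels without treatment were 12.8, 14.0 and 15.2 TPM in WT, 15.4, 13.7 and 15.3 TPM in GILZ KO, and 14.2, 13.1 and 15.9 TPM in GILZ TG. After LPS they were 2.72, 3.15 and 2.31 TPM in WT, 3.19, 4.21 and 3.40 TPM in GILZ KO, and 3.21, 3.47 and 2.70 TPM in GILZ TG. All LPS libraries were below all untreated ones, as those of WT were for 8539 of 13169 genes in TPM. The log2 fold change was -1.66 ± 0.13 in WT, -1.65 ± 0.14 in GILZ KO and -1.50 ± 0.13 in GILZ TG, 3.16-fold, 3.13-fold and 2.83-fold lower (edgeR, adjusted p = 5.1e-09, 9.08e-09 and 1.4e-08). In TPM, the mean after LPS was 19.5%, 24.3% and 21.7% of the untreated mean in the same order.

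Sc5d, the desaturase that acts just before Dhcr7, lies on chromosome 9, 42251595 to 42264256. Its levels without treatment were 28.8, 30.6 and 29.6 TPM in WT, 29.3, 31.3 and 30.6 TPM in GILZ KO, and 23.1, 24.0 and 27.1 TPM in GILZ TG. After LPS they were 29.7, 29.7 and 30.3 TPM in WT, 31.5, 29.8 and 26.9 TPM in GILZ KO, and 27.7, 24.1 and 37.3 TPM in GILZ TG. The LPS and untreated libraries overlapped in each genotype. By counts it was higher by 0.67 ± 0.13 in WT, 0.58 ± 0.13 in GILZ KO and 0.88 ± 0.13 in GILZ TG (edgeR, adjusted p = 0.000228, 0.000934 and 1.5e-05), and on log2(TPM + 1) the differences were 0.01, -0.05 and 0.24.

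Sqle, the epoxidase that opens the sterol branch, fell by 0.99 ± 0.15 in WT, 1.00 ± 0.16 in GILZ KO and 0.95 ± 0.15 in GILZ TG. Lss, which closes the ring to lanosterol, fell by 0.67 ± 0.11, 0.59 ± 0.11 and 0.70 ± 0.11 in the same order. Msmo1 fell by 0.61 ± 0.20, 0.54 ± 0.20 and 0.70 ± 0.20. Cyp51, the lanosterol demethylase, passed in GILZ KO at 0.50 ± 0.21 (edgeR, adjusted p = 0.043), which is -0.08 on log2(TPM + 1), and was at 0.35 ± 0.21 in WT and 0.38 ± 0.21 in GILZ TG. Tm7sf2, a sterol reductase, passed in GILZ TG at -0.30 ± 0.12 (adjusted p = 0.0351), and was at -0.17 ± 0.12 in WT (adjusted p = 0.227) and -0.0043 ± 0.13 in GILZ KO (adjusted p = 0.98). Fdft1, Nsdhl, Hsd17b7 and Ebp were called in no genotype, with log2 fold changes between -0.25 and 0.10. The call of Cyp51 was lost without any GILZ KO library, any untreated WT library or WT LPS replicate 2 (adjusted p up to 0.133, without GILZ KO untreated replicate 3). Tm7sf2 lost its call without GILZ TG untreated replicate 3 or LPS replicate 1 or 3 (up to 0.13), and Msmo1 in GILZ KO without LPS replicate 2 (0.0742).

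Of the 5 regulators and carriers, 3 were higher and 1 lower in WT, and 4 were higher and 1 lower in GILZ KO and in GILZ TG. Of all genes, 33.5% were called higher in WT, 33.2% in GILZ KO and 33.6% in GILZ TG. The shares called lower were 35.1%, 35.4% and 35.1%. Every one of the higher calls of the regulators had a difference below 0 on log2(TPM + 1). Srebf2, which encodes the binding protein of the sterol arm, had a count-based log2 fold change of 0.46 ± 0.11 in WT, 0.42 ± 0.11 in GILZ KO and 0.49 ± 0.11 in GILZ TG. On log2(TPM + 1) these were -0.18, -0.21 and -0.14. Insig1 was at 0.40 ± 0.13 in WT and Insig2 at 0.34 ± 0.08, beside -0.23 and -0.22 on log2(TPM + 1). Scap passed in GILZ KO at 0.29 ± 0.09 and in GILZ TG at 0.23 ± 0.09, beside -0.38 and -0.26 on log2(TPM + 1). Stard4, which carries sterols between membranes, fell by 1.19 ± 0.14 in WT, 1.35 ± 0.15 in GILZ KO and 1.14 ± 0.15 in GILZ TG. Scap lost its call in GILZ KO without untreated replicate 1 (edgeR, adjusted p = 0.0883) and in GILZ TG without any of 9 single libraries, up to 0.177 without GILZ TG untreated replicate 3. Insig1 lost its call in WT without untreated replicate 2 (0.051) and in GILZ KO without untreated replicate 3 or LPS replicate 2 (up to 0.0535), and Insig2 in GILZ TG without untreated replicate 2 (0.201).

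The next question was whether GILZ altered this response. For the difference of LPS responses, 0 of 30 members passed the test for GILZ KO against WT, GILZ TG against WT or GILZ KO against GILZ TG, where 0.0152%, 0.00759% and 0.121% of all genes did (edgeR). At an unadjusted p under 0.05 there were also 0 members in each, against 6.36%, 3.09% and 9.92% of all genes. Approximate 95% intervals of the differences, built from the SE, lay between -0.97 and 0.93 on the log2 scale over all members. The ends are the outermost of any member, and a member with a smaller SE had a narrower interval. Differences within a member's own interval were not excluded at this depth and number of libraries. The member with the largest difference was Mvd, at 0.46 ± 0.24 for GILZ KO against WT (adjusted p = 0.825), followed by Elovl6 at -0.45 ± 0.27 for GILZ KO against GILZ TG (adjusted p = 0.634).

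The genotypes were then compared within each condition. In untreated BMMs, 0 of 30 members passed for GILZ KO against WT (0.0951% of all genes did), GILZ TG against WT (0.642%) or GILZ KO against GILZ TG (4.94%) by edgeR. After LPS, 0 of 30 passed as well, where 0.0822%, 0.46% and 2.6% of all genes did. At an unadjusted p under 0.05 there were 0, 1 and 7 members without treatment, against 9.6%, 14.1% and 24.6% of all genes, and 3, 1 and 3 after LPS, against 9.63%, 15.2% and 19.1%. These comparisons share their libraries.

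GILZ KO against GILZ TG had the values farthest from 0, with a median of 0.12 over the members without treatment and 0.14 after LPS. In untreated BMMs 27 of 30 fitted differences were above 0, in GILZ KO against WT 26 were, and in GILZ TG against WT 8 were. After LPS the numbers were 20, 24 and 15 in the same order. For GILZ KO against GILZ TG, the fatty acid arm had 7 of 7 above 0 without treatment and 2 of 7 after LPS. The medians of all genes were between -0.004 and -0.002 without treatment and between -0.001 and 0.007 after LPS. DESeq2 called 3 members for GILZ KO against GILZ TG without treatment, Srebf2, Stard4 and Hsd17b7, where it called 9.65% of all genes. limma on log2(TPM + 1) called Hsd17b7, where it called 2.12%. These tools called 0 members in the other genotype comparisons. The libraries of GILZ KO and GILZ TG did not overlap in TPM for 9 of 30 members without treatment, against 28.7% of all genes, and for 6 after LPS, against 20.6%.

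Hsd17b7, which reduces a keto group of the sterol ring, was at 18.5, 18.9 and 16.6 TPM in untreated GILZ KO, 12.3, 13.6 and 13.6 in GILZ TG and 16.4, 16.2 and 14.1 in WT. After LPS it was at 12.2, 12.7 and 9.79 TPM in GILZ KO, 6.30, 7.63 and 8.46 in GILZ TG and 6.75, 6.35 and 8.98 in WT. GILZ KO did not overlap with the other genotypes in either condition. Between GILZ KO and WT, 2167 of 12621 genes did not overlap without treatment and 1980 of 12164 after LPS. The log2 fold change against GILZ TG was 0.37 ± 0.11 without treatment (edgeR, adjusted p = 0.0818) and 0.57 ± 0.20 after LPS (adjusted p = 0.146). Srebf2 was at 74.3, 75.4 and 71.9 TPM in untreated GILZ KO and 59.1, 55.1 and 66.2 in GILZ TG, and the log2 fold change was 0.27 ± 0.07 (adjusted p = 0.0618). Tm7sf2 went the other way, at -0.38 ± 0.11 without treatment (adjusted p = 0.0761).

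Among single libraries left out, GILZ TG replicate 3 changed the number of edgeR calls between GILZ KO and GILZ TG most. Srebf2 alone was also called in untreated cells without WT untreated replicate 3 (adjusted p = 0.0488). GILZ TG replicate 3 had the highest TPM of the 3 untreated GILZ TG libraries for 21 of 30 members, among them all 7 of the mevalonate arm and 9 of 11 of the squalene and sterol arm, but 1 of 7 of the fatty acid arm. After LPS it was the highest for 17 of 30. The share of all genes that were highest in this replicate was not counted. For GILZ TG replicates 1, 2 and 3, the mevalonate arm summed to 233, 228 and 335 TPM without treatment and to 184, 167 and 255 TPM after LPS. WT replicate 3 was likewise the highest of its group for 14 of 30 members without treatment and 24 after LPS. Without treatment, the TPM of Fdps were 79.0, 84.9 and 132 in GILZ TG, beside 82.4, 106 and 140 in WT and 113, 128 and 118 in GILZ KO.

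GILZ TG replicate 3 was singled out by its effect on the calls of these same members. It was also the highest of its group for most of them, so leaving it out lowers their GILZ TG mean. The counts of calls without it are no separate test of the genotypes. Without replicate 3 of untreated GILZ TG, 10 members were called higher in GILZ KO than in GILZ TG, where 4.53% of all genes were called higher (edgeR). They were Hmgcs1, Idi1, Sqle, Cyp51, Hsd17b7, Sc5d, Insig1, Srebf2, Stard4 and Fads2, with log2 fold changes from 0.33 for Insig1 to 0.59 for Fads2. Against WT, 5 members were then lower in GILZ TG, against 1.72% of all genes. Without replicate 3 of GILZ TG after LPS, 7 members were called higher in GILZ KO, against 5.23% of all genes, and 2 were lower in GILZ TG than in WT, against 4.07%. Idi1 and Msmo1 were lower in GILZ TG than in WT in both conditions. Without GILZ TG replicates 1 and 2, the medians of GILZ KO against GILZ TG were 0.01 without treatment and 0.02 after LPS, but each then rests on 1 GILZ TG library, which has no spread of its own. Replicates 1 and 2 are those with the stromal, neutrophil and B cell markers given above, and the part of these cells in the result was not tested.

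**Figure D4:**
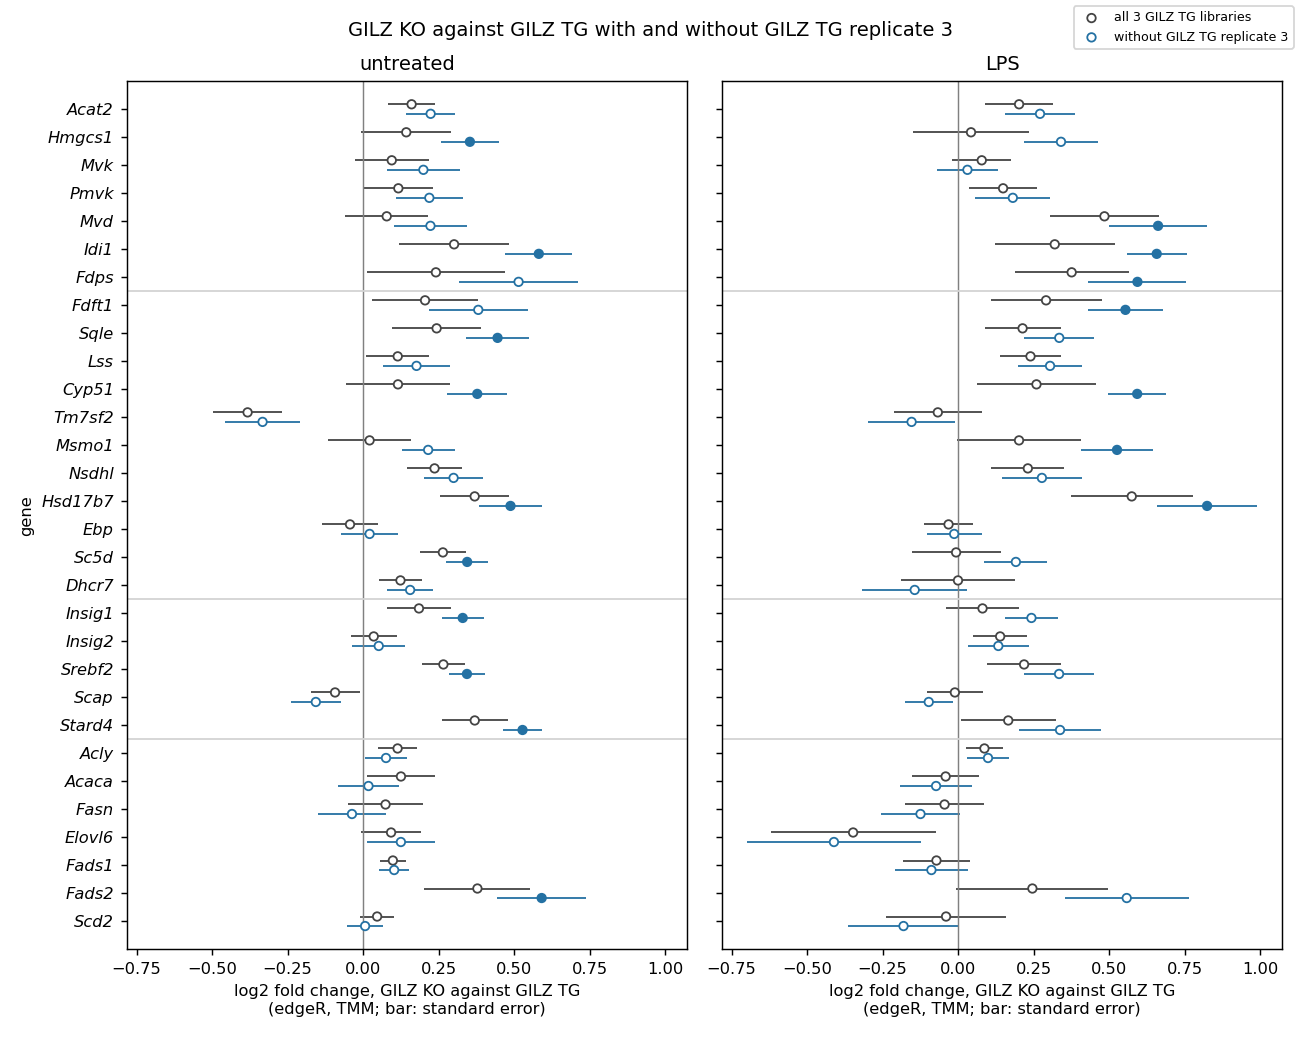
Log2 fold change of GILZ KO against GILZ TG for each gene, without treatment on the left and after LPS on the right, with its standard error, from all 3 GILZ TG libraries (black) and without GILZ TG replicate 3 (blue). Filled points have an adjusted p under 0.05, which holds for 0 genes with all libraries and, without replicate 3, for 10 on the left and 7 on the right. Replicate 3 is the library whose removal changed these calls most, so the blue points are no separate test of the genotypes.

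A list of 25 further genes of the pathway was read by counts, and 23 of them were tested after LPS. In WT 7 were higher and 12 lower, in GILZ KO 6 and 12, and in GILZ TG 7 and 10. Of all genes, 33.5% were higher and 35.1% lower in WT, 33.2% and 35.4% in GILZ KO, and 33.6% and 35.1% in GILZ TG. Ch25h, which makes an oxysterol from cholesterol, rose in WT from 0.47, 0.85 and 1.49 TPM to 42.9, 50.8 and 70.0 TPM, a log2 fold change of 6.50 ± 0.32. Lpin1, a phosphatidate phosphatase, fell by 3.30 ± 0.33 from 1.78, 1.22 and 1.46 TPM to 0.08, 0.14 and 0.07 TPM. Npc2, a lysosomal sterol carrier, was higher by 1.07 ± 0.06, and Acsl3, an acyl-CoA synthetase, fell by 1.27 ± 0.14. Acacb, the mitochondrial counterpart of Acaca, was called at 1.59 ± 0.43 in WT with at most 0.51 TPM in any WT library, and was at 0.18 ± 0.45 in GILZ KO.

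Between genotypes, 1 of the further genes passed, Me1, which supplies NADPH and was named after its values were seen. That is 1 of 22 tested for GILZ KO against GILZ TG without treatment and 1 of 23 after LPS. Of all genes, 4.94% and 2.6% passed. Me1 was at 35.1, 30.4 and 32.1 TPM in untreated GILZ KO, 20.4, 20.3 and 26.7 TPM in GILZ TG and 29.9, 33.0 and 33.1 TPM in WT. GILZ KO was higher than GILZ TG by 0.50 ± 0.12 on the log2 scale without treatment and by 0.60 ± 0.13 after LPS (edgeR, adjusted p = 0.0402 and 0.0377). Against WT, GILZ TG was at -0.52 ± 0.12 without treatment and -0.61 ± 0.13 after LPS, which did not pass (adjusted p = 0.0907 and 0.0702).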

How the data were processed

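RNA-seq of 18 BMM libraries was deposited per gene. The authors processed the reads with the grape-nf pipeline on mouse build GRCm38, and deposited the expected counts and TPM of each library. The 9 deposited tables of their own comparisons (fold changes and p-values from DESeq2 1.40.2) were used only to pair identifiers with names. Expected counts were rounded, genes were filtered with filterByExpr, and the TMM-scaled counts were fitted in edgeR 4.0.16 (R 4.3.3, quasi-likelihood, Benjamini-Hochberg over all genes tested, threshold 0.05). The LPS responses and their differences were fitted on all 18 libraries (13169 genes), and genotypes on the 9 untreated (12621 genes) or 9 LPS libraries (12164 genes). TPM were tested with limma 3.58.1 on log2(TPM + 1), where a fold change of a low gene is understated. Alternatives were DESeq2 1.42.0, other pseudocounts and filters, a replicate block, and leaving out each library. The code was tested on simulated data.

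Libraries held 14583055 to 38557029 reads on genes. Replicates differed by more than sampling noise, so none was counted as a repeat. All 30 members were described, with the values of each library for the 3 that fell most and the 3 that rose most in WT after LPS, and for other members where a comparison turned on them. Further genes of the pathway were named where called with a log2 fold change of at least 1 in either direction in WT, and 1 such gene is not reported here. The members and lists were chosen with earlier results of these data known. Counts of Acat2, Idi1, Fdps, Fdft1, Tm7sf2, Elovl6 and Scd2 were not whole, as reads shared with other genes were split, and their values are uncertain to that extent.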

Additional observations from a re-analysis of the deposited data

How the results depend on the processing

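On log2(TPM + 1) and log2(TPM + 0.1), 0 members were higher and 23 lower after LPS in each genotype, with medians of -0.74 and -0.77 in WT, -0.70 and -0.72 in GILZ KO, and -0.71 and -0.75 in GILZ TG. Calls by counts changed sign there, with the 2 pseudocounts in that order. In WT these were Insig2 (-0.22, -0.23), Srebf2 (-0.18, -0.19), Insig1 (-0.23, -0.23) and Idi1 (-0.012, -0.012). In GILZ KO they were Cyp51 (-0.084, -0.086), Insig2 (-0.21, -0.22), Srebf2 (-0.21, -0.22), Sc5d (-0.049, -0.050), Scap (-0.38, -0.40), Insig1 (-0.24, -0.25) and Idi1 (-0.068, -0.069). In GILZ TG they were Insig2 (-0.35, -0.37), Acly (-0.51, -0.52), Srebf2 (-0.14, -0.15), Scap (-0.26, -0.27), Insig1 (-0.12, -0.12) and Idi1 (-0.018, -0.019). The cause was not tested.

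With libraries centred on their medians, 4 members were higher in GILZ KO and 5 in GILZ TG. In GILZ TG, 5 were higher with no filter, where 4350 of 21604 genes were, and 4 from its 6 libraries alone, where 3928 of 12672 were. Untreated GILZ KO against WT had a member median of 0.12 and 0.13 on the TPM scales, where all genes had 0.042 and 0.047. By counts the medians were 0.081 for the members and -0.002 for all genes. Untreated GILZ KO against GILZ TG had 5 calls at an adjusted p under 0.1 and 2 with no filter, against 13.1% and 4.34% of all genes. DESeq2 made 3, against 9.65%. There was 1 on each TPM scale, against 2.12% with a pseudocount of 1, 2.09% with 0.1 and 2.75% when centred. After LPS there was 1 with no filter, against 4.11% of all genes. The median after LPS was 0.018 without GILZ TG replicates 1 and 2, from 1 GILZ TG library that is assumed to vary like the other groups.

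Leaving out 1 library gave 5 to 8 members higher after LPS in GILZ KO and 4 to 8 in GILZ TG. The lowest in GILZ KO was without its untreated replicate 3, where 4031 of 13379 genes were higher. In GILZ TG it was without untreated replicate 2, where 4036 of 13279 were. Calls ranged from 0 to 10 for GILZ KO against GILZ TG untreated and 0 to 7 after LPS. For GILZ TG against WT they ranged from 0 to 5 untreated and 0 to 2 after LPS. All were highest without GILZ TG replicate 3, where 10.1%, 11.2%, 5.16% and 8.52% of all genes were called, in that order. The median of untreated GILZ KO against WT ranged from 0.027 (without WT untreated replicate 1) to 0.12.

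Same-numbered untreated and LPS libraries deviated together (r over 0.1) in 4 of 9 pairs, 1 of WT and all 3 of GILZ TG (0.266, 0.397 and 0.605), and so not in every pair, and the sources do not say that numbers mark a shared mouse. The numbers were therefore not taken as pairs. With the replicate block, 7 members were higher and 13 lower after LPS in WT, 8 and 13 in GILZ KO, and 9 and 14 in GILZ TG. Calls in either direction were made for 72.3% of all genes in WT, 71.5% in GILZ KO and 72.3% in GILZ TG. For untreated GILZ KO against GILZ TG, 1 member was called, Sc5d at 0.27 (edgeR, adjusted p = 0.0443), against 7.17% of all genes.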
